A study of Mus musculus with 6 samples.

Results

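The transcripts followed here are those of 7 genes of gonadal interstitial and coelomic cells, namely the orphan nuclear receptor genes Nr2f1 and Nr2f2, the basic helix-loop-helix factor gene Tcf21, the leucine zipper factor gene Maf, the platelet-derived growth factor (PDGF) receptor gene Pdgfra and the homeobox genes Lhx9 and Emx2. Every probe set of the array that is annotated with 1 of these symbols alone was taken, which gave 23 of 45037 non-control probe sets. No probe set was annotated with a member together with another symbol. Nr2f2 and Maf had 6 probe sets each, Lhx9 had 4, Pdgfra 3, Tcf21 2, and Nr2f1 and Emx2 1 each. A probe set is a group of oligonucleotides that reads 1 stretch of a transcript, and the probe sets of a gene are given apart because they did not always move together.

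RNA was measured on 6 Affymetrix mouse arrays, 1 for each pool of RNA. The pools came from males of the inbred strain 129/Sv and of the consomic strain 129.MOLF-Chr19, which carries chromosome 19 of the MOLF strain on the 129/Sv background and is prone to testicular germ cell tumors. For each strain there was a pool of testes from E13.5 embryos (named by the embryonic day; 20 pairs, also labelled as genital ridges), a pool of testes at postnatal day 1 (PN1, 12 pairs in 129/Sv and 25 pairs in 129.MOLF-Chr19) and a pool of 3 whole embryos at E13.5. The study asked which transcripts differ between the strains in the gonad when tumors arise, with the embryo as the reference for what is specific to the gonad. Each of the 6 groups has 1 array, so the spread in every test came from how unequally the strains differed across tissues.

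In the fetal testis, steroid-producing Leydig cells, peritubular cells and a reserve of stromal progenitors arise from cells of the coelomic epithelium and the mesenchyme beneath it. Nr2f2 and Tcf21 are widely used to mark the progenitors that have not yet become Leydig cells, and Pdgfra relays PDGF signals that fetal Leydig cells need in order to form. Lhx9 and Emx2 act earlier, and mice that lack either gene fail to form gonads. Maf is transcribed in interstitial cells of the early gonad.

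Array medians lay between 220.5 and 250.7 in deposited intensity, and the 25th percentile of an array, used here as the floor below which values have no order, between 107.4 and 125.3. The tissue labels were checked against marker lists. Sertoli cell genes had 15 of 20 tested probe sets higher in the E13.5 testis than in the embryo and 1 lower (limma, adjusted p under 0.05). For neural markers 14 of 18, and for liver markers 15 of 18, were lower in the E13.5 testis. Cst9, a Sertoli cell gene, was at 2638 and 2716 in the E13.5 testis of 129/Sv and 129.MOLF-Chr19 and at 4591 and 5011 at PN1, but at the floor in both embryo pools. In the PN1 array of 129.MOLF-Chr19 the ratio of 3 prime to 5 prime Actb control signal was 1.84, against 1.09 to 1.19 on the other 5 arrays. The same ratio for the Gapdh control was 0.916 there, against 0.895 to 0.966 on the other 5 arrays. Of 23805 probe sets compared at PN1, 403 fell short of 129/Sv by 2-fold or more in 129.MOLF-Chr19.

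RefSeq promoters on assembly GRCm38.p6 (250 bases before to 50 after a start site) were held for 6 of the 7 genes, with 2 start sites for Nr2f1; Maf was not among them. The 4 shown belong to the genes with the largest called differences between tissues, on the strand of the gene and 5′ to 3′. Capitals mark matches, on either strand, to an E-box (CANNTG, the kind of site bound by helix-loop-helix factors such as Tcf21) or a homeodomain core (TAATTA). Tcf21 lies at chr10:22820094-22820393 (minus strand), Nr2f2 at chr7:70366697-70366996 (minus), Nr2f1 at chr13:78198824-78199123 (minus) and Emx2 at chr19:59458440-59458739 (plus). The letters are those of the C57BL/6J reference, and the MOLF copy of the Emx2 promoter was not analysed here.
Tcf21: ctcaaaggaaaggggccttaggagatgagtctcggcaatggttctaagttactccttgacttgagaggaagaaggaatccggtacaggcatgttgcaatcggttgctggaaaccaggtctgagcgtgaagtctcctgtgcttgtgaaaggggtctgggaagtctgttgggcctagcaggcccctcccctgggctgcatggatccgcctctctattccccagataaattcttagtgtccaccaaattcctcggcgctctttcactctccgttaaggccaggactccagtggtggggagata
Nr2f2: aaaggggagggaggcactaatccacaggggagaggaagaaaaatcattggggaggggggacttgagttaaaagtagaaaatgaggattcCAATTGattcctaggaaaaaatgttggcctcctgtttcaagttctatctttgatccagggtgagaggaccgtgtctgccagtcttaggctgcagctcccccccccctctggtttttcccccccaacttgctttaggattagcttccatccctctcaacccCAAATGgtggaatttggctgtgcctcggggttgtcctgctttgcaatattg
Nr2f1: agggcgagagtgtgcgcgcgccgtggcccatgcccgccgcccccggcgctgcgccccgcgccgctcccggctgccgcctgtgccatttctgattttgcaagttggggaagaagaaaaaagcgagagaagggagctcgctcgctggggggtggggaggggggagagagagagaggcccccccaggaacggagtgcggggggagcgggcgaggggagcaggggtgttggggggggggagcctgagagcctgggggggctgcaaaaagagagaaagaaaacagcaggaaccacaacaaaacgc
Emx2: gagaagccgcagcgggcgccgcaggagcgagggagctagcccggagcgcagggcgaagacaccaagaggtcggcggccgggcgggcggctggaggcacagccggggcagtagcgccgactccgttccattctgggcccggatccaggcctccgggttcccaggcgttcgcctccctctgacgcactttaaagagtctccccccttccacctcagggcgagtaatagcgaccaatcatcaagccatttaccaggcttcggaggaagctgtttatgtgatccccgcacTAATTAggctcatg
The Nr2f2 window held 2 E-boxes and the Emx2 window 1 homeodomain core, while those of Tcf21 and the outer Nr2f1 start site, shown here, held neither. The window of the other Nr2f1 start site (chr13:78196400-78196699, minus strand), not shown, held 3 E-boxes. An E-box was present in 72.3% and TAATTA in 5.29% of 32851 promoters of this length. The nuclear receptor half-site AGGTCA and the Maf half-site TGCTGA, searched on both strands as well (16.3% and 19.5% of promoters), had no match in any of the 7 windows of the member genes, and no searched motif overlapped another. The outer Nr2f1 window and the Emx2 window held 23 and 26 CpG dinucleotides and those of Nr2f2 and Tcf21 held 2 and 8, against a median of 7 over all promoters. The other Nr2f1 window held 4. These are descriptions of the letters, since binding was not measured.

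Tcf21 separated the gonad from the embryo most. Its probe set 1417447_at was at 3752 and 3661 in the E13.5 testis (129/Sv first, 129.MOLF-Chr19 second, as throughout), 3362 and 2668 in the PN1 testis, and 255 and 252 in the embryo. All 4 testis arrays were far above both embryo arrays, which lay close to the array median. The E13.5 testis exceeded the embryo by 3.95 on the log2 scale (SE 0.15, n = 2 arrays per tissue; 15.5-fold; limma adjusted p 5.1e-05), and the PN1 testis exceeded it by 3.65 (SE 0.15; 12.6-fold; adjusted p 3.31e-05). Between the testis ages it differed by −0.30 (95% interval −0.66 to 0.06; adjusted p 0.253). The second probe set, 1458887_at, was dim, from 180 in the 129.MOLF-Chr19 embryo to 281 in the 129/Sv E13.5 testis. It had the same order of tissues, with 1.45-fold more signal in the E13.5 testis than in the embryo (0.54, SE 0.13, adjusted p 0.0318). That smaller call was lost on the values as deposited (adjusted p 0.0658), without the filter on dim probe sets (0.0816) and when any E13.5 array was left out. In bulk RNA, more cells of a type and more RNA per cell cannot be told apart, here and for all genes below.

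**Figure D1:**
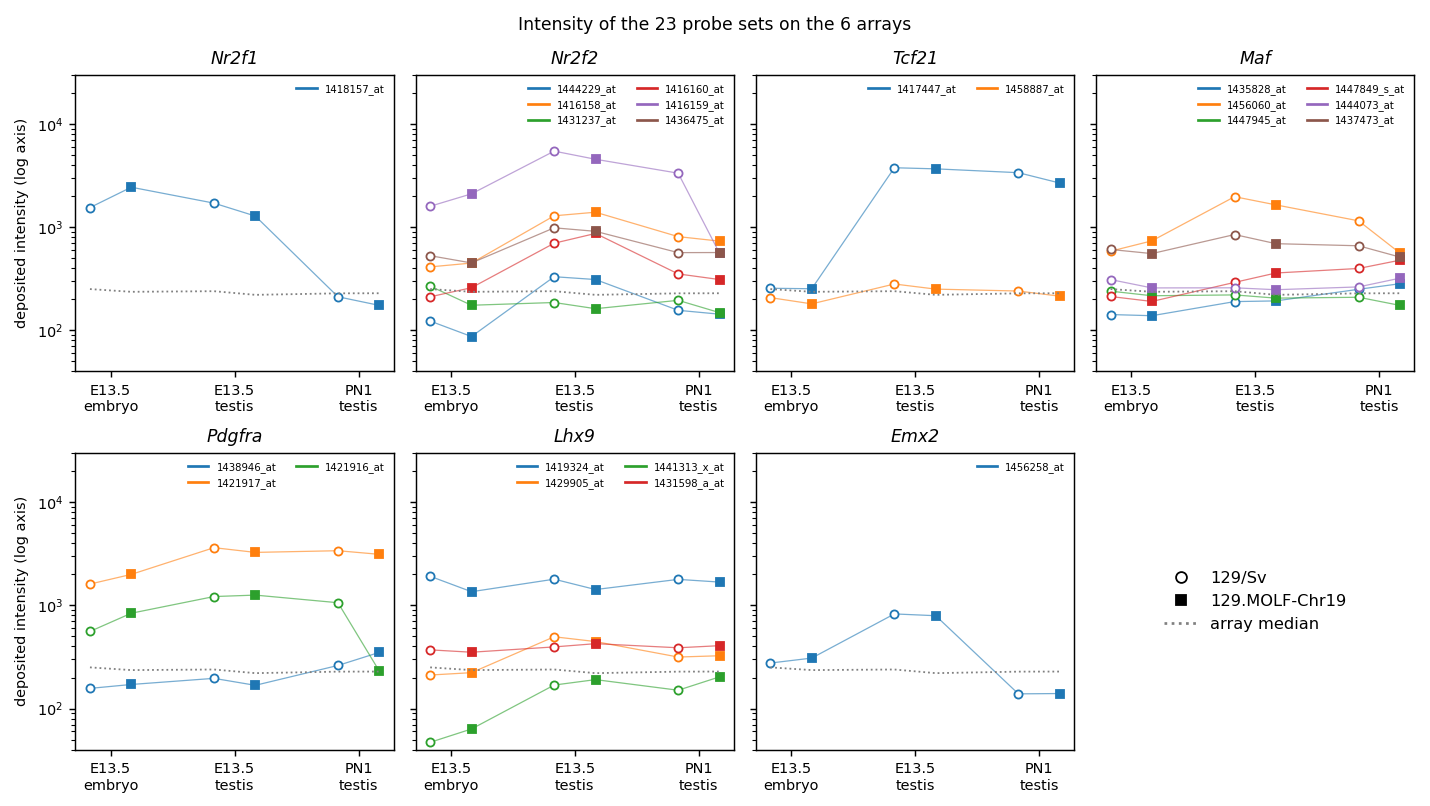
Deposited intensity (log axis) of each of the 23 probe sets on the 6 arrays, by gene; open circles are 129/Sv, filled squares 129.MOLF-Chr19, thin lines join a probe set and the dotted line is the array median. Tcf21 1417447_at stands between 2668 and 3752 on the 4 testis arrays and at 252 and 255 on the embryo arrays, and Nr2f1 and Emx2 fall below the array median in the PN1 testis.

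Nr2f2 (COUP-TFII), the nuclear receptor of the interstitial progenitors, was highest in the E13.5 testis. Probe set 1416158_at read 1285 and 1392 there, 808 and 731 in the PN1 testis, and 411 and 448 in the embryo, so that the 3 tissues did not overlap. Probe set 1416160_at read 697 and 867, then 352 and 310.1, then 211 and 258 in the same tissues, again without overlap. Probe set 1436475_at read 983 and 909 in the E13.5 testis, 565 and 566 at PN1 and 528 and 449 in the embryo, and 1444229_at read 330.4 and 310.2, 156 and 143, and 123 and 87.0. Both embryo values of the latter were below the floor, so its excess over the embryo is a lower bound.

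For these 4 probe sets of Nr2f2 the E13.5 testis exceeded the embryo by 1.04 to 1.82 on the log2 scale, or 2.06-fold to 3.53-fold (SE 0.12 to 0.18; limma adjusted p 0.000955 to 0.0031). From E13.5 to PN1 they fell by 0.73 to 1.23, or 1.66-fold to 2.34-fold (SE 0.12 to 0.18; adjusted p 0.00676 to 0.0195). The fall was in the same direction in both strains. Against the embryo, 1416158_at and 1416160_at passed with any array left out, 1436475_at did not without either E13.5 testis array (adjusted p 0.0621 and 0.0777), nor 1444229_at without that of 129.MOLF-Chr19 (0.0614). Each of the 4 calls of a fall was lost when either E13.5 testis array was left out, which leaves 1 residual degree of freedom (adjusted p 0.0991 to 0.249). Of these 4, in the PN1 testis against the embryo only 1416158_at passed, at 0.93 (SE 0.15, adjusted p 0.00727; 0.0732 without the 129/Sv embryo), and the other 3 lay between 0.31 and 0.59.

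The brightest probe set of Nr2f2, 1416159_at, followed the same order in 5 arrays and broke it in the 6th. It read 5437 and 4534 in the E13.5 testis, 1589.6 and 2097 in the embryo, and 3325 at PN1 in the testis of 129/Sv, but 558 in the PN1 testis of 129.MOLF-Chr19. That last value was below both embryo arrays. Its tissue differences were therefore imprecise: 1.53 for the E13.5 testis against the embryo (95% interval −0.0007 to 3.05, adjusted p 0.156) and −1.86 for PN1 against E13.5 (−3.38 to −0.33, adjusted p 0.113). For PN1 against the embryo the difference of −0.33 (adjusted p 0.787) averaged arrays that lay on opposite sides of the embryo. It was 1.04 without the 129.MOLF-Chr19 array (adjusted p 9.59e-05) and −1.71 without the 129/Sv array (1.63e-07). Each of these rests on 1 PN1 array that is assumed to vary like the other tissues, so neither p carries the spread between the PN1 arrays. With either PN1 array left out the E13.5 testis exceeded the embryo by the same 1.53, in fits with 1 residual degree of freedom. The remaining Nr2f2 probe set, 1431237_at, lay above the array median only in the 129/Sv embryo (268, against 148 to 195 elsewhere) and was not tested.

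Nr2f1 (COUP-TFI), the close paralogue of Nr2f2, had another pattern. Its probe set 1418157_at read 1704 and 1278 in the E13.5 testis, 1544 and 2431 in the embryo, but 211 and 174 at PN1. The first 4 arrays overlapped between tissues, and both PN1 values lay below the array median. PN1 was lower than E13.5 in the testis by 2.93 (SE 0.26, n = 2; 7.65-fold; limma adjusted p 0.00218) and lower than the embryo by 3.24 (SE 0.26; 9.47-fold; adjusted p 0.000475). E13.5 testis and embryo differed by −0.31 (95% interval −0.93 to 0.32, adjusted p 0.465). Without the 129/Sv E13.5 testis array the fall with age was −2.67 on the log2 scale but no longer passed (adjusted p 0.0699). Whether Nr2f1 and Nr2f2 differ in these contrasts was not tested.

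Emx2, which lies on chromosome 19 (59458690 to 59465357, GRCm38.p6), fell below embryo level by PN1. Its probe set 1456258_at read 826 and 794 in the E13.5 testis, 276 and 308 in the embryo but 139 and 139.9 at PN1, with no overlap between tissues. It was 2.94-fold higher in the E13.5 testis than in the embryo (1.56 on the log2 scale, SE 0.13, adjusted p 0.000772), 5.77-fold lower at PN1 than at E13.5 in the testis (−2.53, SE 0.13, adjusted p 0.000296) and 1.96-fold lower at PN1 than in the embryo (−0.97, SE 0.13, adjusted p 0.00323). All 3 calls held when any array was left out. The mesonephros and its ducts also transcribe Emx2, and the E13.5 pools were labelled as genital ridges. Of the other mesonephric markers, Cdh16, a duct cadherin, read 522 and 456 in the E13.5 testis, 250.3 and 199 in the embryo, and 249 and 231 at PN1, so that it was highest in the E13.5 testis while embryo and PN1 overlapped. Gata3, a duct transcription factor gene, read 142 and 156, then 112 and 133, then 65.6 and 57.1 in the same tissues, but lay under the array median throughout, was at the floor on 3 arrays and was not tested. Cdh16 gave the 1 of 6 tested mesonephric probe sets that was called higher in the E13.5 testis than in the embryo, against 14.0% of all tested. From E13.5 to PN1, 1 of the 6 fell and 1 rose, against 9.43% and 3.14% of all tested. Cdh16 was 2.02-fold lower (limma adjusted p 0.00575) and Ret, another gene of the list, 1.56-fold higher (0.0195). The summed level of the 7 genes on the array was 2646 and 2177 in the E13.5 testis, 2615 and 2258 in the embryo and 2224 and 2154 at PN1. The part of such tissue in the Emx2 result was not tested.

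Lhx9, a LIM homeobox gene, showed the least movement in its brightest probe set. Probe set 1419324_at read 1792 and 1423 in the E13.5 testis, 1912 and 1355 in the embryo, and 1785 and 1680.5 at PN1, and all tissues overlapped. Its tissue differences were 0.07 to 0.20 with 95% intervals that together ran from −0.24 to 0.51, and adjusted p from 0.383 to 0.754. Probe set 1431598_a_at was likewise flat, at 352 to 425 over the 6 arrays. Probe set 1429905_at instead read 496 and 446 in the E13.5 testis, 316 and 325 at PN1 and 211 and 223 in the embryo. It was 2.3-fold higher in the E13.5 testis than in the embryo (1.20, SE 0.12, adjusted p 0.00181; 0.0521 without the 129/Sv E13.5 testis) and fell by 0.55 to PN1 (SE 0.12, adjusted p 0.0344), a call that was lost without the PN1 array of 129.MOLF-Chr19 (adjusted p 0.065), without any 1 of the E13.5 arrays, without the filter (0.0941) and with quantile normalization (0.0706). The fourth probe set, 1441313_x_at, was below the median on every array (47.1 and 63.5 in the embryo, 151 to 203 in the testis) and was not tested. Without the filter, and with both embryo values at the floor, it was at least 0.65 higher on the log2 scale in the E13.5 testis than in the embryo (adjusted p 0.0255).

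Maf probe sets fell into different patterns. The brightest, 1456060_at, read 1967 and 1639 in the E13.5 testis, 583 and 735 in the embryo, and 1149 and 559.6 at PN1. Its E13.5 testis values were above all others, and of the PN1 arrays that of 129/Sv lay above and that of 129.MOLF-Chr19 below both embryo arrays. It exceeded the embryo 2.9-fold at E13.5 (1.54, SE 0.31, adjusted p 0.0185) and was at −1.15 for PN1 against E13.5 (SE 0.31, adjusted p 0.059). The latter passed on the values as deposited (0.0263) and without strain as a block (0.0389). Without either embryo array the difference stayed at −1.15. It was −1.74 without the 129/Sv array of PN1, which rests on the 129.MOLF-Chr19 array at 559.6 alone and carries no spread between the PN1 arrays. Probe set 1447849_s_at read 291 and 359 in the E13.5 testis, 397 and 477 at PN1, and 212 and 190.3 in the embryo, so that here the PN1 testis was highest. It was higher than the embryo at E13.5 (0.77, SE 0.15, adjusted p 0.0175) and at PN1 (1.21, SE 0.15; 2.31-fold; adjusted p 0.00289), as was the dim 1435828_at (0.53 and 1.01, adjusted p 0.0414 and 0.00382), which read 138 to 142 in the embryo, 189.6 and 193 at E13.5 and 249.5 and 283 at PN1. For these 2 probe sets PN1 minus E13.5 was 0.44 and 0.48 (adjusted p 0.116 and 0.0673); the second passed with the floor at the 40th percentile (0.0447) and with eBayes without trend (0.0476). The 3 calls of Maf at E13.5 against the embryo were each lost when either E13.5 testis array was left out, and also without the 129/Sv embryo (1456060_at and 1435828_at) or the 129.MOLF-Chr19 embryo (1447849_s_at and 1435828_at). That of 1435828_at was also lost with the floor at the 40th percentile, where its difference shrank to 0.11 (adjusted p 0.583), on the values as deposited (0.0923) and without the filter (0.0546), and that of 1447849_s_at without the filter (0.0522). Across the 6 arrays 1456060_at correlated with 1437473_at (Pearson's r 0.962) and 1447849_s_at with 1435828_at (0.979), but 1456060_at with 1447849_s_at only at 0.253. These are descriptions over 6 arrays that share the same RNA. Probe sets 1444073_at and 1447945_at stayed near the array median throughout, at 247 to 320 and 174 to 239, and the latter was not tested.

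Pdgfra, the receptor, was read brightly by 1421917_at, at 3619 and 3257 in the E13.5 testis, 3382 and 3120 in the PN1 testis, and 1608 and 1995 in the embryo. All 4 testis arrays exceeded both embryo arrays. The excess was 2.03-fold at E13.5 (1.02, SE 0.15, adjusted p 0.00641) and 1.93-fold at PN1 (0.95, SE 0.15, adjusted p 0.00753), and the testis ages differed by −0.07 (95% interval −0.43 to 0.29). The E13.5 call was lost when either E13.5 testis array was left out (adjusted p 0.103 and 0.0883), and both it and the PN1 call without the 129/Sv embryo (0.0514 and 0.0556). Probe set 1421916_at read 1217 and 1257 at E13.5, 559 and 839 in the embryo and 1060.4 at PN1 in the testis of 129/Sv, but 231 in that of 129.MOLF-Chr19, the lowest of the 6. Its tissue differences were 0.94 (95% interval −0.52 to 2.39) for the E13.5 testis against the embryo and −1.31 (−2.77 to 0.14) for PN1 against E13.5, and neither passed (adjusted p 0.344 and 0.219). The dim probe set 1438946_at was above the array median at PN1 alone (262 and 350.3, against 157 to 196 elsewhere). It was 1.68-fold higher at PN1 than at E13.5 (0.75, SE 0.17, adjusted p 0.0333), which was lost without the filter (0.0638), without the PN1 array of 129.MOLF-Chr19 (0.119) and without any 1 of the E13.5 arrays.

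Of the 20 probe sets that passed the filter (above the array median on at least 2 arrays), 12 exceeded the embryo in the E13.5 testis and 0 fell below it (13 at an unadjusted p under 0.05), against 14.0% and 4.03% of 24713 tested (32.2% at the unadjusted p). Quantile normalization moved the split over all probe sets from 77.7% to 62.2% higher among those called, and the values as deposited moved it to 67.4%. The median difference of the 20 was 0.98, and that of all tested 0.05. From E13.5 to PN1 in the testis 7 fell (Nr2f1, Emx2, 4 of Nr2f2 and 1 of Lhx9) and 1 rose (Pdgfra 1438946_at), against 9.43% lower and 3.14% higher of all tested (28.1% at an unadjusted p under 0.05), where quantile normalization moved the split from 25% to 40.3% higher. At PN1 against the embryo, where age and tissue differ together, 7 were higher and 2 lower, against 9.10% and 6.48% of all tested (15.6% in either direction, and 29.0% at an unadjusted p under 0.05). On the values as deposited that split moved from 58.4% to 43.4% higher over all probe sets. These comparisons share arrays, so their counts are not separate evidence. Nr2f2 1444229_at, Maf 1435828_at and Pdgfra 1438946_at passed the filter through 1 tissue alone, in which they were highest. Lhx9 1429905_at, Maf 1447849_s_at and Tcf21 1458887_at lay above the median on testis arrays alone, so that they too passed through the tissue in which they were high. The counts describe the filtered probe sets and are no support for a difference between testis and embryo. Without the filter 10 of 23 were higher in the E13.5 testis than in the embryo, and 6 of 23 fell and 0 rose from E13.5 to PN1. Leaving out the 129/Sv or the 129.MOLF-Chr19 array of the E13.5 testis left 5 higher against the embryo in each case, and 1 (Emx2) or 2 (Emx2 and Nr2f1) lower at PN1. At PN1 against the embryo, leaving out the 129/Sv embryo left 3 higher, and leaving out the PN1 array of 129.MOLF-Chr19 gave 11.

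**Figure D2:**
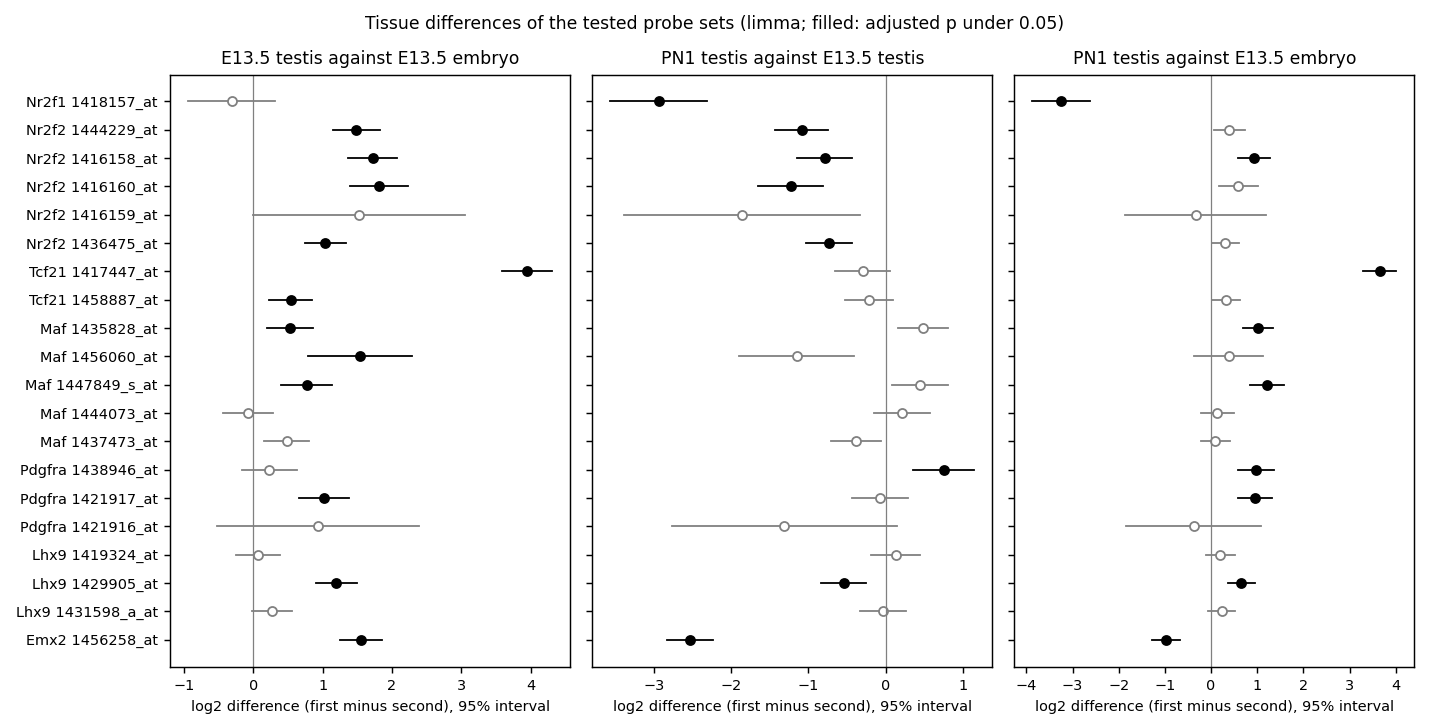
Log2 difference between tissues (first minus second named) with its 95% interval for the 20 tested probe sets, from limma over 6 arrays with strain as a block; filled points have an adjusted p under 0.05. In the first panel 12 points lie to the right with filled symbols, and the intervals of Nr2f2 1416159_at and Pdgfra 1421916_at are the widest.

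Strain made no difference that passed in the fit across the 3 tissues. None of the 20 probe sets was called (limma adjusted p 0.395 to 0.919, and 0 at an unadjusted p under 0.05), against 3 of 24713 probe sets (0.0121%, and 13.2% at an unadjusted p under 0.05). The nearest was Lhx9 1419324_at, lower in 129.MOLF-Chr19 in 3 of 3 tissues at −0.24 (95% interval −0.50 to 0.02). For Emx2, the member on the chromosome that differs by design, the strain difference was 0.10 (95% interval −0.14 to 0.35), and it was 0.06 in the E13.5 testis, 0.01 at PN1 and 0.25 in the embryo. A sequence difference of the MOLF chromosome under its probes cannot be told apart from a change in level here. Before centring, array medians differed between strains by −0.117, 0.003 and −0.088 on the log2 scale in the E13.5 testis, PN1 testis and embryo, and the strain differences are relative to these shifts.

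Within tissues the members differed between the strains by at least 2-fold in the PN1 testis alone. In the E13.5 testis 0 of 18 compared probe sets passed 2-fold, with differences from −0.30 to 0.43, against 0.101% higher and 0.0676% lower of all probe sets (0.169% together). In the embryo 0 of 15 passed (−0.53 to 0.74), against 0.0547% higher and 0.294% lower (0.349% together). In the PN1 testis 3 of 17 were reduced by 2-fold or more in 129.MOLF-Chr19 and 0 raised, against 1.69% lower and 0.202% higher of all probe sets. The 3 were Nr2f2 1416159_at (3325 against 558; −2.58, or 5.97-fold), Pdgfra 1421916_at (1060.4 against 231; −2.20, or 4.61-fold) and Maf 1456060_at (1149 against 559.6; −1.04, or 2.06-fold). With 1 array per group these differences have no replicate check. The median of the 17 was −0.12, and that of all probe sets 0.02.

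The falls at PN1 were not shared by the other probe sets of the same genes. Those of Nr2f2 that were compared lay at −0.15, −0.18 and 0.00, those of Pdgfra at −0.12 and 0.42, and those of Maf between −0.37 and 0.28. Tcf21 was at −0.34 and −0.17, Lhx9 at −0.09, 0.04 and 0.06, and the compared probe sets of neither gene passed. Over the whole array, 320 genes had a probe set with such a fall, 292 of them with other compared probe sets, and 37 had several that passed. The 620 other probe sets of these genes had a median of −0.05. The Actb control signal on that array was 5118 at the 3 prime end, 1517 in the middle and 2778 at the 5 prime end, against 15203, 12444 and 12811 in 129/Sv. The ratio of 3 prime to 5 prime Gapdh control signal was 0.916 on that array and 0.895 in 129/Sv. The part of these control signals in the 3 falls was not tested.

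**Figure D3:**
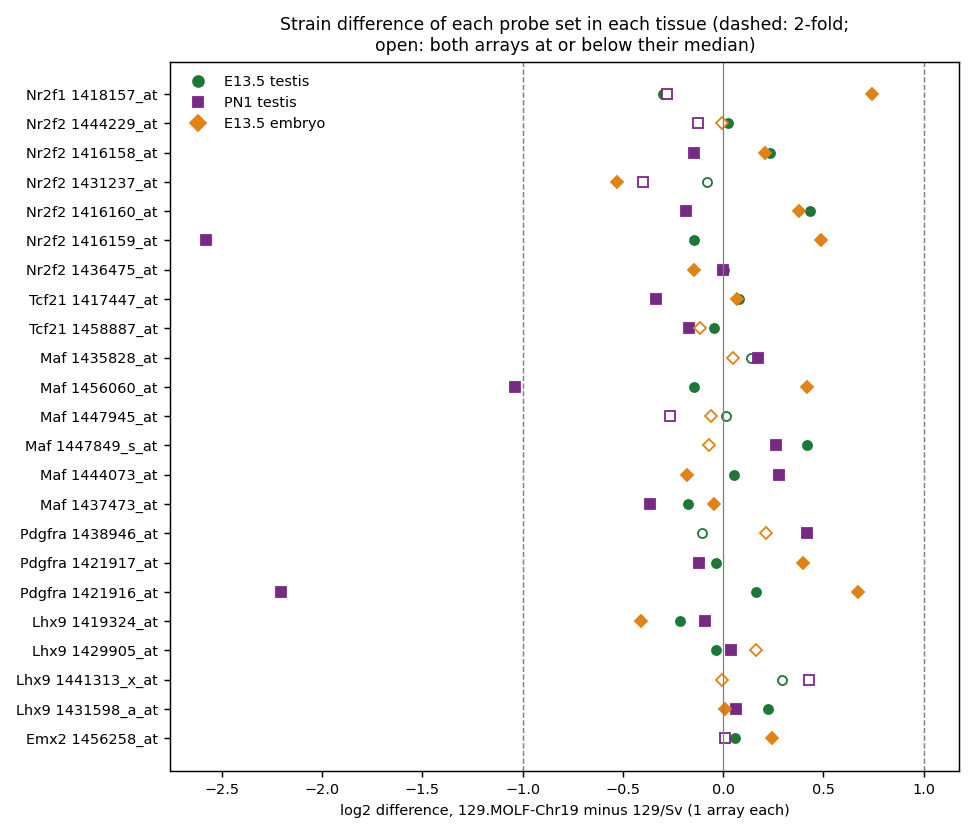
Log2 difference between strains (129.MOLF-Chr19 minus 129/Sv, 1 array each) for the 23 probe sets in the E13.5 testis (circles), PN1 testis (squares) and embryo (diamonds); open symbols have both arrays at or below their median and dashed lines mark 2-fold. The 3 squares left of −1 are Nr2f2 1416159_at, Pdgfra 1421916_at and Maf 1456060_at, and all other points lie between the dashed lines.

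Genes that work with the members were followed as lists. Among the other PDGF genes, 4 of 7 tested probe sets were higher in the E13.5 testis than in the embryo. Pdgfrb, the second PDGF receptor, was 2.86-fold higher (1.52, SE 0.12, adjusted p 0.00076), and the ligand gene Pdgfc 2.08-fold. From E13.5 to PN1 Pdgfrb was 2.49-fold lower (adjusted p 0.00256) and Pdgfc 2.16-fold lower (0.00876), while the ligand gene Pdgfa was 1.51-fold higher (0.024). In the hedgehog pathway, through which Sertoli cells signal to the interstitium, 7 of 22 probe sets were higher in the E13.5 testis than in the embryo, where 14.0% of all tested were. The ligand gene Dhh was 8.4-fold higher (adjusted p 0.000155) and the receptor and target gene Ptch1 2.75-fold (0.00374). From E13.5 to PN1, 4 of 22 fell and 1 rose: Gli3 was 2.27-fold lower (0.00418), Gli2 1.55-fold lower (0.0286) and Dhh 1.89-fold higher (0.0158). In the Notch pathway, which acts in keeping Leydig cell progenitors undifferentiated, 5 of 19 fell with age, led by the ligand gene Jag1 (2.21-fold, adjusted p 0.00567) and the target gene Hes1 (1.59-fold, 0.0189).

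The other interstitial progenitor genes moved both ways with age. Of 36 tested probe sets 13 fell and 8 rose from E13.5 to PN1, against 9.43% and 3.14% of all tested, the shares for every count with age in these lists. The homeobox genes Meis1 and Meis2 were 4.26-fold and 4.16-fold lower (adjusted p 0.000548 and 0.000544), Wnt5a was 3.01-fold lower (0.00164), and the growth factor gene Igf1 was 4.6-fold higher (0.00056). Fetal Leydig cell genes rose in 9 of 14 probe sets, for example Hsd3b1 (2.48-fold, adjusted p 0.00264) and Cyp11a1 (2.62-fold, 0.00478), which encode steroidogenic enzymes. Peritubular genes rose in 3 of 15, led by the smooth muscle myosin gene Myh11 (5.31-fold, 0.000412), and fell in 1. Of the genital ridge list 6 of 17 fell and 2 rose, among them Six4 (2.16-fold lower, 0.00586) and Gata4 (1.91-fold higher, 0.0128). The paralogues of Lhx9, Emx2 and Tcf21 had a median difference with age of 0.06 over 12 probe sets. Against the embryo, Lhx2, a neural and limb paralogue of Lhx9, was at least 5.39-fold lower in the E13.5 testis (adjusted p 0.000466), where both arrays were at the floor, and Nr2f6 was 1.49-fold higher (0.0263).

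**Figure D4:**
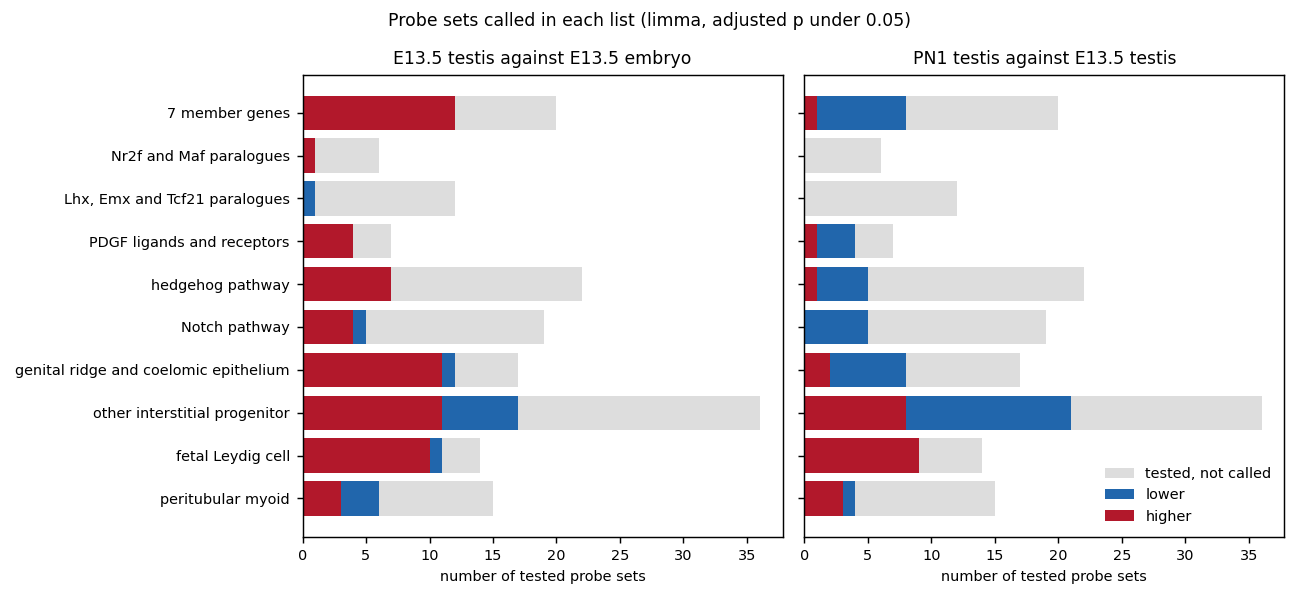
Number of tested probe sets in each list that were higher (red), lower (blue) or not called (grey) by limma at an adjusted p under 0.05, for the E13.5 testis against the embryo (left) and PN1 against E13.5 testis (right). The members have 12 of 20 higher on the left and 7 lower with 1 higher on the right, and the fetal Leydig cell list has 9 of 14 higher on the right.

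At PN1, probe sets of these lists also fell short of 129/Sv by 2-fold or more in 129.MOLF-Chr19. In the other interstitial list 5 of 30 compared probe sets did. They included 1 of Wnt5a (−1.70), 2 of Igf1 (−1.74 and −1.07) and 2 of Ebf1 (−1.73 and −1.04). The other compared probe sets of Igf1 lay at −0.805 and −0.33, and those of Ebf1 at −0.56 and −0.24. In the hedgehog list 3 of 20 did, all of Hhip (−1.86, −1.58 and −1.28), the hedgehog-binding inhibitor. The fourth Hhip probe set was at 0.49. Array-wide the share was 1.69%. The genital ridge list had 1 of 16, of Gata6 (−1.06), whose other compared probe set lay at −0.98. The peritubular list had 3 of 14 (the same Hhip probe sets) and the germ cell list 1 of 11, with 1 more raised by 2-fold. None of 14 fetal Leydig cell and none of 19 Sertoli cell probe sets passed 2-fold. The summed intensity of the other interstitial list was 48176 in 129/Sv and 38638 in 129.MOLF-Chr19 at PN1, that of the peritubular list 14803 and 10796, that of the Leydig list 15706 and 15653, and that of the Sertoli list 38677 and 39075. These sums are over the brightest probe set of each gene, and their part in the member differences was not tested.

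The transcripts most like the members over the 6 arrays were ranked by Pearson's r among 4425 probe sets that ranged over at least 1 log2 unit. For Tcf21 the closest was Wt1 (r 0.997), the transcription factor gene of the coelomic epithelium and Sertoli cells, at 2293 and 2340.3 in the E13.5 testis, 1584 and 1461 at PN1 and 141 and 146 in the embryo. Lamp2 (0.996) and Slc25a36 (0.995) came next. For Nr2f1 the closest were Runx1t1 (0.996), Elavl2 (0.993) and Bzw2 (0.992), and for Emx2 Taf1d (0.998), Col9a3 (0.997) and Mtf2 (0.997). Pdgfra 1421917_at was most like Pgap2 (0.999), Mmp2 (0.992) and Fam174a (0.992). For the probe sets with a low value on the PN1 array of 129.MOLF-Chr19, the nearest were Oip5os1, Lpp and Nufip2 for Nr2f2 1416159_at (0.992 each) and Sema5a (0.998), Wwc2 (0.996) and Rbm26 (0.990) for Maf 1456060_at. Lhx9 1419324_at ranged over less than 1 log2 unit and was not ranked. With 6 arrays that share tissue and RNA such values are descriptions.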

How the data were processed

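Biotin-labelled RNA pools of the 6 groups were hybridised to 1 array each. The authors deposited probe set intensity on a linear scale; its summary method is not given in the sources used here. Values under the 25th percentile of an array were set to it, and log2 values were taken relative to the array median over all but control probe sets. Symbols came from GEO's platform annotation (34945 probe sets with 1 symbol, 932 with several, 9160 with none), and positions and promoters from RefSeq, GRCm38.p6. Within a tissue, probe sets with 1 array above its median were compared at 2-fold. Probe sets above the median on at least 2 arrays entered limma 3.58.1 (R 4.3.3, tissue plus strain, eBayes with trend, Benjamini-Hochberg over 24713 probe sets, two-sided), with 2 residual degrees of freedom. The p-values rest on how unequally the strains differed across tissues, and no spread between pools of the same group was measured. The fits were tested on simulated data. All tested probe sets of the 7 genes are named, with the called genes of smallest p in each list and the 3 most alike probe sets. Members and lists were chosen with earlier results of these data known. Tables and plots used Python 3.11.15, pandas 2.3.3 and matplotlib 3.10.9. Alternatives were the scaling, floor, filter, fold threshold, variance model, block, gene means and each array left out. The number of arrays limits the precision.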

Additional observations from a re-analysis of the deposited data

Results flagged for a closer look

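Pdgfra 1421916_at is listed because its strain difference (129.MOLF-Chr19 minus 129/Sv) ran opposite ways in different tissues, at −2.20 on the log2 scale in the PN1 testis and 0.67 in the E13.5 embryo, each past 1.5-fold. With 1 array per group the difference between tissues was not tested.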

How the results depend on the processing

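Of 29 calls of member probe sets in the tissue comparisons, 10 held under every alternative in which the probe set was tested. Among such alternatives that left out no array, 23 held under every one. Dim probe sets did not enter the filter at the 75th percentile, and the gene means were not counted. For PN1 against E13.5 testis, the 1 higher call became 2 with a floor at the 40th percentile and 2 with eBayes without trend, and 0 with no filter or a filter at the 75th percentile; leaving out single arrays gave 0 to 1 higher and 1 to 10 lower. For the E13.5 testis against the embryo, leaving out single arrays gave 5 to 15 higher. For the PN1 testis against the embryo, the filter at the 75th percentile gave 3 higher, and leaving out single arrays gave 3 to 11 higher and 2 to 4 lower. Without the PN1 array of 129.MOLF-Chr19, Nr2f2 1416159_at (1.04) and Pdgfra 1421916_at (0.93) turned from negative to positive in that comparison, and without the PN1 array of 129/Sv they were at −1.71 and −1.69. At 1.5-fold, 2 member probe sets were higher in the 129.MOLF-Chr19 embryo, Nr2f1 at 0.74 and Pdgfra 1421916_at at 0.67. With the mean of a gene's probe sets, Nr2f2 still fell with age (−0.95, adjusted p 0.0139), Lhx9 no longer did (0.448), and Pdgfra no longer exceeded the embryo (0.0623 at E13.5). Some of these alternatives have fewer arrays or probe sets behind them, and others have the same or more. The cause of the changed values was not tested. No paired analysis was possible because the labels give no replicate numbers to pair by, apart from strain, which was the block; without it the counts of called members stayed within 1.5 times. Signals near the floor, as of Emx2 at PN1, limit the folds against them. Those of Nr2f1 at PN1 lay below the array median but above the floor.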
